A study of Homo sapiens with 4 samples.

Results

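FLII, the gelsolin-family genes GSN, SVIL, CAPG and VIL1, and the FLII-binding genes LRRFIP1 and LRRFIP2 were examined in RKO cells with and without CHD7 knockdown. The set was chosen by the fall of FLII mRNA in the comparison of shCHD7_2 with vector samples described here, and the other genes were added as its protein family and binding partners. Earlier results of these data were known when these genes were added. The 7 genes were found by gene symbol, and 6 of them have a row among the 15357 genes of the count and FPKM matrices. No row was found for VIL1, which is therefore not analysed here.

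RKO is a human colon cancer cell line. Cells infected with lentivirus to express a control shRNA stably, labelled vector, were compared with cells stably expressing CHD7 shRNA-2, labelled shCHD7_2, with 2 samples in each group and the same culture medium and serum for both. A single hairpin against CHD7 was sequenced, so an effect of losing CHD7 and any other effect of that hairpin cannot be told apart. The labels do not say whether the samples came from separate cultures, so p-values measure only the spread between these samples. RNA was captured on oligo-dT beads, and the authors deposited estimated read counts and FPKM values, which are fragments scaled for gene length and for library size. The counts summed to between 15734679 and 16068650 per sample. In the analysis below counts were scaled with TMM to CPM, a gene's counts relative to the size of its library, and the quasi-likelihood test of edgeR was run on 11955 genes. Calls required a fold change of 1.5 or more and, over all genes tested, an adjusted p under 0.05.

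The targeted gene, CHD7, had 85.4 and 91.0 CPM in the vector samples and 55.5 and 50.1 in the shCHD7_2 samples. Of 7 epithelial markers 5 were listed, with a summed FPKM between 75.3 and 90.3 in the 4 samples. The epithelial adhesion gene CDH1 was at 0 counts in 3 samples and at 1 in the other, while KRT18 lay between 51.9 and 65.6 FPKM. Of 13 fibroblast, leukocyte and endothelial markers 5 were listed, and the sum of each list stayed at or below 0.1 FPKM in every sample.

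Proteins of the gelsolin family bind actin through repeated gelsolin-like domains and sever, cap or bundle actin filaments, many of them in response to calcium. FLII (flightless-1 homologue) is an unusual member because it carries leucine-rich repeats in front of the gelsolin-like domains, and it is found in the cytoplasm and in the nucleus, where it can act as a coactivator of nuclear receptors. LRRFIP1 and LRRFIP2 were named for their binding to the leucine-rich repeats of FLII. Gelsolin itself (GSN) severs and caps filaments, CAPG caps them without severing, supervillin (SVIL) links actin and myosin II to membranes, and villin (VIL1) bundles filaments in the microvilli of intestinal epithelium.

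FLII and GSN were the members whose mRNA level differed most between the groups, in opposite directions, and the regions around their starts are shown for that reason. FLII lies on chromosome 17 of GRCh38 from 18244836 to 18258916 on the minus strand (GENCODE 29), and its longest coding transcript has 30 exons. GSN lies on chromosome 9 from 121207794 to 121332843 on the plus strand. RefSeq, on GRCh38.p14, gives 1 promoter window for FLII and 6 for GSN, each of 300 bases (250 before and 50 after the start). Of the GSN windows, the one holding the most GENCODE 29 coding transcript starts, 3, is shown. Both are written 5′ to 3′ on the strand of the gene, with matches to GGGCGG on either strand in capitals.
FLII, chr17:18258689-18258988, minus strand: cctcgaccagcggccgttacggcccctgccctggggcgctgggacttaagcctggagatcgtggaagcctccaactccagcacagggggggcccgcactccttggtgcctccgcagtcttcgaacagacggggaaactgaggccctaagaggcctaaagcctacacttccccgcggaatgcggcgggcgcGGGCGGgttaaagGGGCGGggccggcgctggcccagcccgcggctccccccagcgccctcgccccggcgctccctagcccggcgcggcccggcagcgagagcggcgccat
GSN, chr9:121267912-121268211, plus strand: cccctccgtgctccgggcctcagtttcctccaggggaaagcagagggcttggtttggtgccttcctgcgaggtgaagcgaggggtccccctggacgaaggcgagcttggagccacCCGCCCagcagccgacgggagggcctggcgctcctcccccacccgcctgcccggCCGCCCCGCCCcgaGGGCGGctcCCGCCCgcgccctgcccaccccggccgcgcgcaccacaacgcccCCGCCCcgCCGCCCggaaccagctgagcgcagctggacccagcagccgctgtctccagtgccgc

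The FLII window held 2 matches to GGGCGG, the core of the GC box, and the GSN window held 7, counted on both strands and with overlapping matches counted separately. The motif was present in 45.0% of 35116 RefSeq windows of the same length. Neither window held the CCAAT motif, present in 34.6% of windows, the TATA motif TATAAA, present in 11.5%, the E-box motif CACGTG, present in 7.26%, or the CArG box, present in 1.29%. The GC content was 73.0% in the FLII window and 76.3% in the GSN window. Of the 6 GSN windows, 4 held a GGGCGG match. Among the GSN windows not shown, that at 121285855-121286154 held 1 TATAAA match and that at 121286299-121286598 held 2 CCAAT matches. Which GSN start is used in these cells was not tested. Among the 4 windows of SVIL a single one held a CArG box, the motif bound by serum response factor. These matches describe the letters only, and no binding or accessibility was measured in the files used here.

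FLII mRNA was lower in both shCHD7_2 samples. It had 3279 and 3203 counts in the vector samples and 1014 and 1037 in the shCHD7_2 samples, or 211.2 and 202.9 CPM against 63.2 and 65.0 CPM. The groups did not overlap, and within each group the samples lay close together, at 207.1 ± 5.89 (SD, n = 2) CPM in vector and 64.1 ± 1.24 (SD, n = 2) in shCHD7_2 samples. The fitted log2 fold change was -1.69 (standard error 0.081), 3.23-fold lower, whereas that of CHD7 was -0.74 (standard error 0.088). Since FLII was selected on this difference, the value is a description, and its interval and call below are not read as a test. The log2 fold change of FLII was at or above that of 0.0753% of the 11955 genes tested, which places it among the largest falls in the comparison. In bulk samples such as these, fewer cells with FLII mRNA and less of it per cell cannot be told apart.

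GSN mRNA was higher in both shCHD7_2 samples. Its counts were 700 and 675 in the vector samples and 1266 and 1377 in the shCHD7_2 samples, or 45.1 and 42.8 CPM against 79.0 and 86.3 CPM. Both shCHD7_2 samples lay above both vector samples. The means were 43.9 ± 1.65 (SD, n = 2) and 82.6 ± 5.19 (SD, n = 2) CPM, and GSN rose by 0.91 on the log2 scale (1.88-fold, standard error 0.089, adjusted p = 2.3e-07 from edgeR over all genes tested). Its log2 fold change was at or above that of 98.9% of the genes tested. Since the members were chosen with earlier results of these data known, these values of GSN are also given as a description. GSN therefore moved against FLII, and the ratio of FLII to GSN on the FPKM scale went from 2.92 ± 0.0698 (SD, n = 2) in vector to 0.477 ± 0.0204 (SD, n = 2) in shCHD7_2 samples. This ratio rests in part on the fall of FLII by which the set was selected.

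CAPG and SVIL, the remaining family members with a row, showed overlapping groups. CAPG had 76.3 and 72.2 CPM in vector and 67.7 and 76.5 in shCHD7_2 samples. Its log2 fold change was -0.044, with a 95% interval from -0.23 to 0.14 (adjusted p = 0.804 from edgeR). SVIL had 24.1 and 25.4 CPM in vector and 25.8 and 22.5 in shCHD7_2 samples. Its log2 fold change was -0.037, with an interval from -0.26 to 0.18 (adjusted p = 0.871 from edgeR). For both genes the interval lies within a fold change of 1.5 in either direction.

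The FLII-binding genes did not follow FLII. LRRFIP1, which also acts as a transcriptional repressor and a sensor of cytosolic nucleic acids, had 116.6 and 124.5 CPM in vector and 144.8 and 135.7 in shCHD7_2 samples. Both shCHD7_2 samples were above both vector samples, but the log2 fold change of 0.22 (standard error 0.080, 95% interval from 0.053 to 0.38) did not pass the threshold (adjusted p = 0.0821 from edgeR). LRRFIP2, which also binds the Wnt signalling protein DVL3, had 54.4 and 55.6 CPM in vector and 55.3 and 52.5 in shCHD7_2 samples. These groups overlapped, with a log2 fold change of -0.031 and an interval from -0.21 to 0.15 (adjusted p = 0.864 from edgeR).

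**Figure D1:**
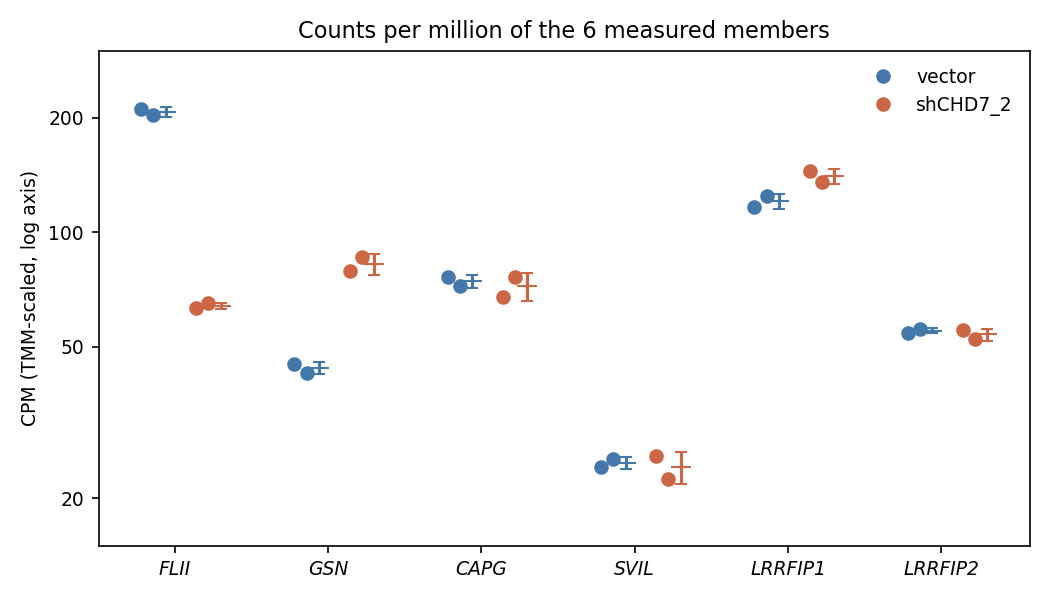
TMM-scaled CPM, on a log axis, of the 6 measured members in vector (blue) and shCHD7_2 (orange) samples. Points are samples and bars are the mean ± SD of 2 samples. FLII falls from 211.2 and 202.9 to 63.2 and 65.0 CPM and GSN rises from 45.1 and 42.8 to 79.0 and 86.3, while CAPG, SVIL and LRRFIP2 overlap between the groups.

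Of the 6 members tested, 1 was called lower (FLII) and 1 higher (GSN), in a comparison where 2.88% of all genes tested were called, 1.37% lower and 1.51% higher. As the set was proposed from this contrast, nothing is read from that count. No further member passed an adjusted p under 0.05 without the fold threshold, which 11.5% of all genes tested did. The groups did not overlap in CPM for 3 of the 6 members (FLII, GSN and LRRFIP1), near the 53.7% of all genes tested for which this was so. Permuting 2 samples against 2 allows no two-sided p under 0.333.

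**Figure D2:**
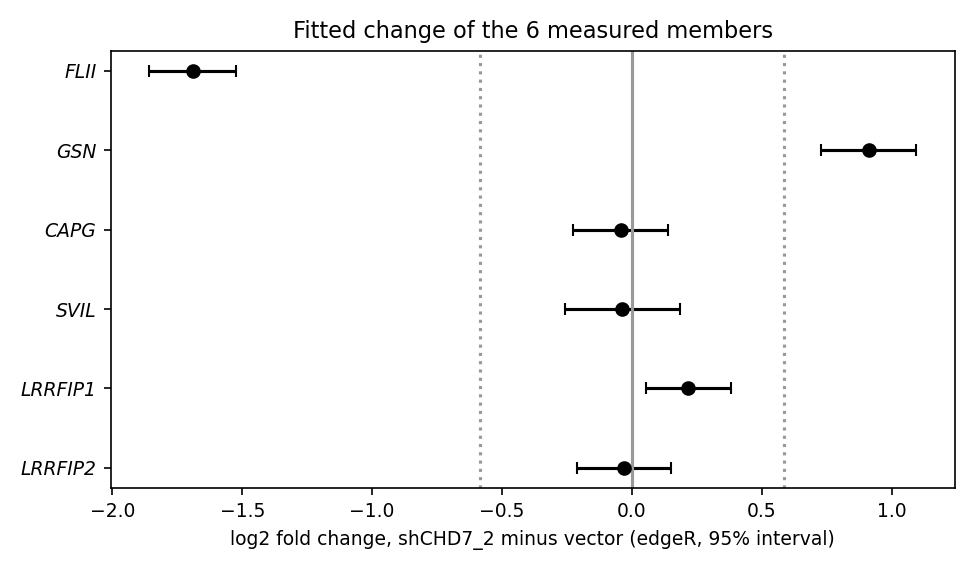
Fitted log2 fold change, shCHD7_2 minus vector, of the 6 measured members, with 95% intervals from edgeR. Dotted lines mark a fold change of 1.5 in either direction. FLII at -1.69 and GSN at 0.91 lie outside them, and the intervals of the other 4 lie inside.

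Levels of different genes were compared on the FPKM scale, which accounts for gene length. In the vector samples CAPG had the highest level of the members, with 66.2 and 62.7 FPKM, followed by FLII with 51.7 and 49.5. LRRFIP1 followed with 22.7 and 24.1, LRRFIP2 with 19.8 and 20.2 and GSN with 18.02 and 16.68, and SVIL was lowest with 3.60 and 3.79. No neighbours in this order overlapped in the vector samples. In the shCHD7_2 samples CAPG was again highest with 60.8 and 67.8 FPKM and SVIL lowest with 4.0 and 3.48. GSN had moved to the second place with 32.4 and 35.3 FPKM, ahead of LRRFIP1 with 28.99 and 26.87 and LRRFIP2 with 20.8 and 19.5. FLII had moved to the fifth place with 15.9 and 16.3. Among all 15357 genes, the mean FPKM of FLII went from percentile 89.3 to 66.7, and that of GSN from 69.1 to 82.9.

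The other gelsolin-domain genes with a row, AVIL, SCIN and VILL, had at most 10 counts in any sample and were too low to be tested, so CAPG, FLII, GSN and SVIL made up nearly all of the measured family. The summed FPKM of the family was 139.9 and 132.9 in vector and 113.5 and 123.3 in shCHD7_2 samples. FLII made up 37.1% ± 0.201 (SD, n = 2) of this sum in vector and 13.64% ± 0.564 (SD, n = 2) in shCHD7_2 samples, and GSN 12.7% ± 0.235 (SD, n = 2) and 28.6% ± 0.0387 (SD, n = 2). The share of CAPG, whose CPM overlapped between the groups, was 47.2% ± 0.134 (SD, n = 2) and 54.3% ± 1.01 (SD, n = 2). All of these shares rest in part on the fall of FLII by which the set was selected. Without FLII, the sum was 88.2 and 83.4 FPKM in vector and 97.54 and 106.9 in shCHD7_2 samples.

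**Figure D3:**
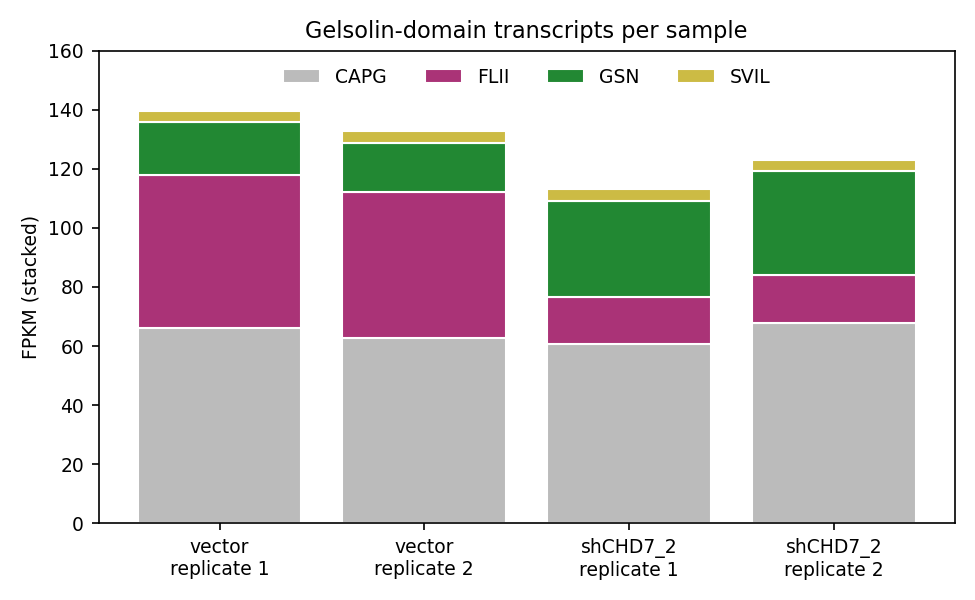
Stacked FPKM of CAPG, FLII, GSN and SVIL in each of the 4 samples. The height of a bar is the sum of these genes. The FLII segment shrinks from 51.7 and 49.5 FPKM in vector to 15.9 and 16.3 in shCHD7_2 samples while the GSN segment grows from 18.02 and 16.68 to 32.4 and 35.3.

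The level of FLII relative to its binding partners also differed. FLII had 2.17 ± 0.160 (SD, n = 2) times the FPKM of LRRFIP1 in vector and 0.578 ± 0.0409 (SD, n = 2) times in shCHD7_2 samples. For LRRFIP2 these values were 2.53 ± 0.108 (SD, n = 2) and 0.802 ± 0.0511 (SD, n = 2). FLII mRNA was thus above that of each partner in every vector sample and below it in every shCHD7_2 sample. These ratios rest on the fall of FLII by which the set was selected.

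Dividing a gene's count by its FPKM and by the sample's total gives the length over which the authors' program normalized it, which changes when the mix of transcript isoforms changes. For FLII this length was 4028 and 4024 bases in vector and 4042 and 4029 in shCHD7_2 samples, a difference of 0.237%. For GSN it was 2469 and 2518 bases against 2481 and 2476, a difference of -0.604%. Over 10961 genes (mean FPKM of 1 or more, every sample above 0.5), the difference lay between -5.42% and 4.23% for 95% of genes. The other members differed by between -0.685% for SVIL and 0.557% for LRRFIP1, so none of the 6 members showed a change in implied length outside that range. Isoforms of like length would not be seen in this way.

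FLII has neighbours on both sides within a few kilobases. The 5 nearest tested genes on each side were ATPAF2, GID4, DRG2, ALKBH5 and LLGL1 at lower coordinates and MIEF2, TOP3A, SMCR8, SHMT1 and ZNF286B at higher coordinates, together spanning 704.9 kb. None of the 10 was called in edgeR, and 0 passed an adjusted p under 0.05 without the fold threshold, beside 2.88% and 11.5% of all genes tested. With so few genes, neither count is read as particular to these neighbours. The lowest log2 fold change was -0.14 for GID4, a subunit of a ubiquitin ligase, with 29.2 and 28.7 CPM in vector and 24.9 and 27.6 in shCHD7_2 samples. The highest was 0.20 for LLGL1, a regulator of epithelial polarity, with 59.1 and 50.4 CPM in vector and 62.6 and 63.4 in shCHD7_2 samples (adjusted p = 0.168 from edgeR). MIEF2, a mitochondrial fission factor that starts on the opposite strand close to the FLII start, had 13.5 and 11.1 CPM in vector and 13.0 and 13.1 in shCHD7_2 samples. The median over the 10 genes was 0.032. The 95% intervals of all 10 lay between -0.39 and 0.39.

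The 3′ ends of FLII and LLGL1 meet on opposite strands and share 40 bases of exon in GENCODE 29. Whether the counting used strand is not given in the sources used here, so reads within those bases could fall to either gene. GSN shares no exonic base with RAB14, which lies opposite its 5′ part, and RAB14 had a log2 fold change of -0.24 (adjusted p = 0.0421 from edgeR), opposite in sign to that of GSN. On the opposite strand, GSN does share 279 exonic bases with GSN-AS1 and 82 with AL513122.2, and SVIL shares 353 with SVIL-AS1. These antisense genes have no row in the matrices, so their levels are not known here. LRRFIP1 shares 91 exonic bases with RBM44 on the same strand, and RBM44 was at -0.33 (adjusted p = 0.660 from edgeR).

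Short words in mRNAs were looked up because 3 words of 7 bases, namely AGCTATT, the word GAAGCTA and the word GCTATTA, had been found in earlier work on these same samples to be common in the 3′ UTRs of genes lower in shCHD7_2. That choice was made on these data and supports nothing by itself. In the longest coding mRNA of GENCODE 29, 1 or more of them occurred in 37.5% of 11719 tested genes and in 75.9% of 158 genes called lower. The whole mRNA was searched, not only the 3′ UTR, and mRNA length was not adjusted for. The FLII mRNA, 4338 bases long with a 3′ UTR of 305 bases, held none of the 3 words in any part. The mRNAs of GSN, SVIL, CAPG and LRRFIP1 held none either. The LRRFIP1 mRNA searched was 4370 bases long. Its implied length was greater, at 5068 and 5070 bases in vector and 5086 and 5109 in shCHD7_2 samples. Longer LRRFIP1 transcripts were thus counted by the authors' program but not searched. LRRFIP2 held GAAGCTA once, in the coding sequence at position 2121 of its mRNA, and its level overlapped between the groups.

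The genes whose 4 CPM values followed FLII most closely were found by the Euclidean distance between log2 CPM values, each taken as the difference from the gene's mean over the 4 samples. The 5 closest of the genes tested were MBTPS1 (distance 0.263), LAIR2 (0.284), DEGS1 (0.301), STMN1 (0.331) and EMP1 (0.333). MBTPS1, the site-1 protease of the Golgi, had 132.4 and 139.4 CPM in vector and 50.2 and 49.3 in shCHD7_2 samples. LAIR2, a secreted collagen-binding receptor, had 21.2 and 23.7 CPM against 5.86 and 5.77. DEGS1, an enzyme of ceramide synthesis, had 102.8 and 106.2 against 39.4 and 39.7. With only 4 samples in 2 groups, the distance rests mainly on the size of the fall.

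The wider actin machinery was followed through 61 genes in 6 lists, which all had a row and of which 56 were tested. Of these 56, 1 was called higher and 0 lower in edgeR, and their median log2 fold change was -0.015, beside 0.00056 over all genes tested, of which 2.88% were called. A further 7 passed an adjusted p under 0.05 with a smaller fold, so that 8 of the 56 passed it without the fold threshold, beside 11.5% of all genes tested. Neither count is read as particular to these lists.

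**Figure D4:**
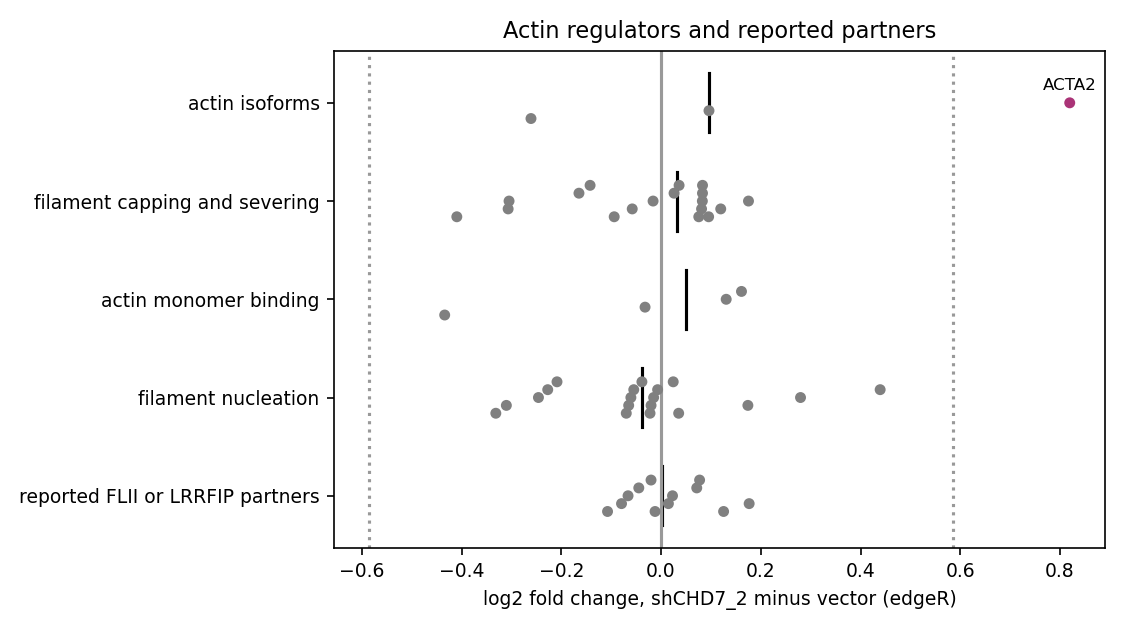
Log2 fold change, shCHD7_2 minus vector, of the tested genes of 5 lists of actin regulators and reported partners. Each point is a gene, vertical bars are list medians, dotted lines mark a fold change of 1.5, and the called gene is named. ACTA2 at 0.82 is the point outside the dotted lines.

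Of the actin genes themselves, cytoplasmic β-actin (ACTB) had 2355 and 2038 CPM in vector and 2294 and 2403 in shCHD7_2 samples, with a log2 fold change of 0.096 (adjusted p = 0.441 from edgeR). Cytoplasmic γ-actin (ACTG1) had 3008 and 2704 CPM in vector and 2300 and 2468 in shCHD7_2 samples, a log2 fold change of -0.26 (adjusted p = 0.0163 from edgeR) that is under the fold threshold. ACTA2, smooth muscle α-actin, was called higher at a low level, with 2.19 and 2.09 CPM in vector and 3.43 and 4.14 in shCHD7_2 samples, which was 0.82 on the log2 scale (standard error 0.24, adjusted p = 0.0258 from edgeR, range over alternatives 0.00326 to 0.250). It was not called by DESeq2 (adjusted p = 0.250), with every gene that had a count in edgeR (0.114), by limma on log2(FPKM + 1), or without vector replicate 1, vector replicate 2 or shCHD7_2 replicate 2. ACTA2 shares 380 exonic bases with FAS and 516 with ACTA2-AS1, both on the opposite strand. ACTA2-AS1 has no row in the matrices. FAS, a p53 target, was at a log2 fold change of 0.51 (adjusted p = 0.00272 from edgeR). Whether reads of either gene entered the ACTA2 counts was not tested. Actin genes are also near-identical in their coding sequence, so reads divided between them are uncertain.

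Among 18 filament capping and severing factors, 0 were called in edgeR and 2 passed an adjusted p under 0.05 without the fold threshold. Over all genes tested, these shares were 2.88% and 11.5%. The 2 factors were TWF1 (twinfilin-1) and TMOD3 (tropomodulin-3), a cap of the pointed end. TWF1 went from 287.7 and 305.6 CPM to 230.4 and 216.3 (log2 fold change -0.41, adjusted p = 7.2e-04 from edgeR). TMOD3 was at -0.31. Of 4 actin monomer-binding genes none was called by edgeR. TMSB4X (thymosin β4) had 36.3 and 37.8 CPM in vector and 26.9 and 28.0 in shCHD7_2 samples, a log2 fold change of -0.43 (adjusted p = 0.00401 from edgeR), and PFN2 (profilin-2) was at 0.16 (adjusted p = 0.209 from edgeR).

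Of 19 tested nucleation genes, 0 were called in edgeR and 3 passed an adjusted p under 0.05 without the fold threshold. Over all genes tested, these shares were 2.88% and 11.5%, and neither count is read as particular to the nucleation genes. ARPC3, a subunit of the Arp2/3 complex, had 152.6 and 162.0 CPM in vector and 206.3 and 220.3 in shCHD7_2 samples, a log2 fold change of 0.44 (adjusted p = 4.6e-04 from edgeR). The formins FMNL2 and FMNL3 were at -0.33 and -0.31.

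The 12 genes listed as reported partners of FLII or the LRRFIP proteins were all tested and lay between -0.11 and 0.18 on the log2 scale, with a median of 0.0014. None was called by edgeR, and 0 passed an adjusted p under 0.05 without the fold threshold, beside 2.88% and 11.5% of all genes tested. Of the 12, CDC42 had the smallest p, at 0.18 on the log2 scale (adjusted p = 0.128 from edgeR). Next was MYD88, the adaptor of Toll-like receptors, at 0.13 (adjusted p = 0.415 from edgeR). MYD88 had 43.9 and 46.0 CPM in vector and 47.0 and 51.1 in shCHD7_2 samples. ACTL6A and SMARCA4, subunits of SWI/SNF complexes, were at -0.012 (adjusted p = 0.953 from edgeR) and 0.072 (0.588).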

How the data were processed

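Polyadenylated RNA of 4 RKO samples, 2 vector and 2 shCHD7_2, was analysed, grouped by their labels. The authors deposited expected counts, estimated per gene and not normalized, and FPKM values, normalized by them for gene length and library size. Bowtie2, RSEM, DESeq2 and build hg38 are named in the submitters' processing notes. Versions, the annotation and use of strand are not given in the sources used here. RSEM can divide reads between similar genes.

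Counts were rounded to whole numbers, filtered with filterByExpr, scaled by TMM and tested with edgeR 4.0.16 (R 4.3.3, quasi-likelihood, Benjamini-Hochberg over 11955 genes). Standard errors and 95% intervals follow from its F statistic. Alternatives used DESeq2 1.42.0 and limma 3.58.1 on log2(FPKM + 1) or log2(FPKM + 0.1), with a mean FPKM of at least 1 or no filter. Gene locations and mRNAs came from GENCODE 29, and promoters from RefSeq.

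Members and gene lists were chosen with earlier results of these data known. A further list of actin regulators is not reported here. Named genes were the members, called genes of each list (otherwise the 2 with the smallest p), the 5 nearest tested genes on each side of FLII, the 5 closest profiles and CHD7. FAS, RAB14, RBM44, FMNL3, ACTB, ACTG1, ACTL6A, SMARCA4 and the cell markers were named outside that rule. Precision is limited by 2 samples per group and by counting error at low counts.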

Additional observations from a re-analysis of the deposited data

How the results depend on the processing

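The log2 fold change of FLII, by which the set was selected, ran from -1.72 to -1.59 over 13 alternatives and from -1.72 to -1.66 without each sample in turn, which is given as a description. GSN ran from 0.85 to 0.97 and passed in 12 of 13, the exception being limma on log2(FPKM + 1) with no filter on low values (0.92, adjusted p = 0.0725 from limma, range over alternatives 2.0e-47 to 0.0725), where 1 member, FLII, was called. CAPG, SVIL, LRRFIP1 and LRRFIP2 were called in none of the 13, LRRFIP1 because its fold stayed under 1.5 where its adjusted p passed. LRRFIP1 stayed between 0.17 and 0.27, and CAPG (-0.13 to 0.037), SVIL (-0.14 to 0.058) and LRRFIP2 (-0.073 to 0.013) changed sign between settings.

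Over all genes, 344 were called. There were 219 by DESeq2 (91 higher and 128 lower), 141 with every gene that had a count in edgeR (53 and 88), 169 by limma on log2(FPKM + 1) (84 and 85), 12 by limma with no filter (2 and 10) and 1373 with no fold threshold (591 and 782). In the same order, the 1 called list gene, ACTA2, became 0, 0, 0, 0 and 8, and leaving out each sample gave between 0 and 1. More genes tested at low counts, or the removal of the fold threshold, belong to these settings by construction, and the cause of the other differences was not tested.

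Vector and shCHD7_2 share replicate numbers in the labels. Samples with the same number deviated from the group mean with a correlation of -0.198 over genes. With 2 samples per group, samples with different numbers have a correlation of the same size and opposite sign. Whether the samples were prepared in pairs is not given in the labels, and this correlation cannot show it. With a replicate block the log2 fold change of FLII was -1.69 and that of GSN 0.91, and 329 genes were called. The block changed the call of no member and not that of ACTA2. Crossing the pairs, which was chosen after seeing the data, gave 423 calls, 2 of them members. Each fit without a sample assumes that the lone sample of its group varies like the other group.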

Other observations

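The length implied by count and FPKM, which hardly moved for the members, was shorter for CHD7 itself in the shCHD7_2 samples, at 10002 and 9499 bases against 10469 and 10514 in vector samples, a difference of -7.06%, outside the range of 95% of genes. The cause was not tested.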
